A study of Mus musculus with 15 samples.

Results

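Small leucine-rich proteoglycans of the extracellular matrix were followed in mouse embryonic stem cells. The set holds 8 genes, Dcn (decorin), Lum (lumican), Bgn (biglycan), Fmod (fibromodulin), Nepn (nephrocan), Ogn (osteoglycin), Aspn (asporin) and Prelp. They were chosen with earlier results of these data known and were found by their names on the array. All 8 were on the array, each with 1 probe, and 5 of them (Dcn, Lum, Bgn, Fmod, Nepn) were among the 25139 genes tested in the whole series. The other 3 (Ogn, Aspn, Prelp) were well above background on 0 of 15 arrays and entered no test.

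The study hybridised total RNA of 15 samples to 1-colour Agilent arrays. The groups were sh4 cells given 1 µM retinoic acid for 72 hours (3 arrays), shCTR cells given the same treatment (4 arrays), untreated sh4 cells (4 arrays) and untreated shCTR cells (4 arrays). The labels name sh4 and shCTR as what was transfected, and give neither the target of sh4 nor the sequence of shCTR. The series title names Phf19, a Polycomb-like protein that binds methylated histone tails. The labels name embryonic stem cells without a line, sex or passage, and call the replicates biological without saying whether they were separate cultures, so the p-values cover the spread between these samples, which may be technical. In bulk RNA, fewer cells of a type and less RNA per cell cannot be told apart.

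Small leucine-rich proteoglycans are secreted proteins with a curved core of leucine-rich repeats. Most carry chondroitin, dermatan or keratan sulphate chains. In connective tissue they bind collagen fibrils and set fibril thickness and spacing, and several bind growth factors such as transforming growth factor beta. Embryonic stem cells make little fibrous matrix, and retinoic acid, a vitamin A derivative that acts through nuclear receptors, drives them out of the pluripotent state towards matrix-producing and epithelial cell types.

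The probes of Dcn, Nepn and Bgn are shown because the results turn on these genes and each probe holds an open reading frame. Each has 60 bases, 5′ to 3′, with mm9 coordinates from the files. Capitals mark a stop codon that ends a frame open for at least 15 codons before it. In Bgn 1 frame holds no stop codon over the whole probe, so nothing is in capitals.
Dcn, chr10:96980233-96980292, plus strand: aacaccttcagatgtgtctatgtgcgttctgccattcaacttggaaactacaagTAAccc
Nepn, chr10:52124110-52124169, plus strand: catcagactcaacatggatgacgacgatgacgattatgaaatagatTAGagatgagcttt
Bgn, chrX:70738554-70738613, plus strand: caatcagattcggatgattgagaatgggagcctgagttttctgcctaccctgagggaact
The Dcn stop codon lies at bases 55 to 57 of its probe and the Nepn stop codon at bases 47 to 49. No mm9 annotation was used here, so whether these are the stop codons of the genes' coding sequences was not looked up. Labelling was primed from the poly(A) tail with oligo-dT, per the labels.

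The members lie in clusters with other genes of the family. In the order of protein-coding genes in a RefSeq table of GRCm38.p6, Dcn, Lum, Kera and Epyc follow one another on chromosome 10. On chromosome 13 the order is Ecm2, Aspn, Omd and Ogn, and on chromosome 1 it is Optc, Prelp and Fmod. Bgn on the X chromosome and Nepn, also on chromosome 10, have no family gene as a neighbour. Neighbours differed in whether they were measured: Kera, Epyc, Omd, Aspn, Ogn and Prelp were well above background on no array, while Dcn, Lum, Ecm2 and Optc were well above background on every array of retinoic acid treated cells, and Fmod on all 15 arrays.

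The cells were checked against their label first. Phf19 had intensities of 99.3 to 142.4 in treated sh4 cells against 208.8 to 230.1 in treated shCTR cells, and of 247.2 to 328 in untreated sh4 cells against 815 to 970.8 in untreated shCTR cells. The sh4 minus shCTR difference in Phf19 was −0.88 ± 0.09 (log2, standard error) in treated cells and −1.73 ± 0.09 in untreated cells (adjusted p = 1.8e-05 and 7.1e-09, limma). The 8 embryonic stem cell markers, Pou5f1 and Nanog among them, were all measured, and their summed level ran from 4.7 to 9.93 in treated sh4 cells, 10.7 to 12.8 in treated shCTR cells, 211 to 221 in untreated sh4 cells and 274 to 302 in untreated shCTR cells. The share of probes marked as well above background was 73.8% to 79.4% per array, and the scanner software rated 3 of the 15 arrays as needing evaluation.

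Levels below are the scanner's background-corrected spot intensities, in arbitrary units, or their log2 after subtraction of each array's 75th percentile, called the log2 level. A probe's brightness depends on its sequence, so levels of different genes are not compared. A probe that the scanner software does not mark as well above background has only an upper limit on that array. The lowest intensity marked well above background was between 5.4 and 8.8 on the 15 arrays. Some unmarked probes were brighter than that, so changes given as at least a number of fold are bounds under this limit only.

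**Figure D1:**
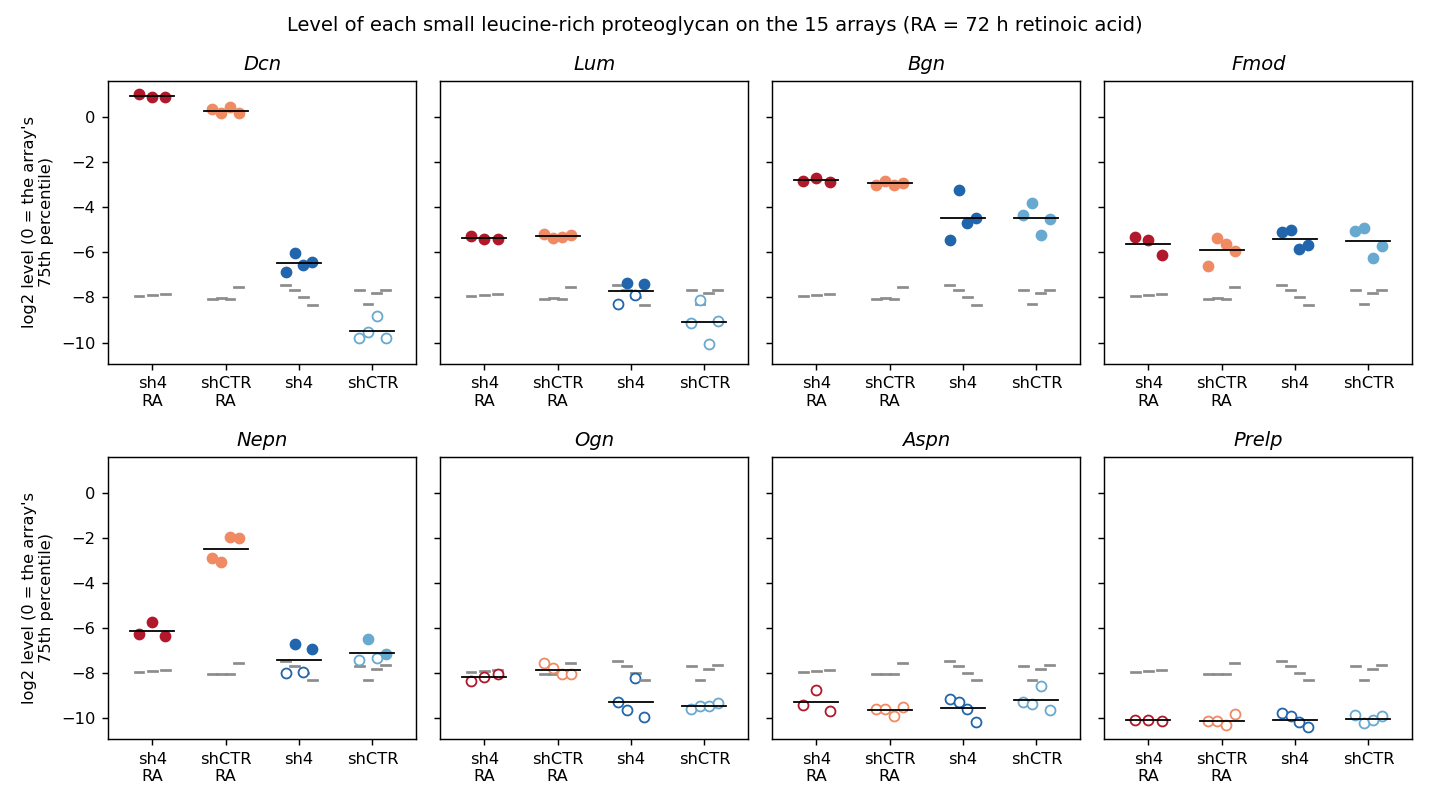
Each panel plots 1 gene's log2 level on the y axis, with 0 at the array's 75th percentile, against the 4 groups on the x axis. Circles are arrays, filled where the probe was well above background, black lines are group means, and short grey lines are the lowest level well above background on each array. Dcn is at 0.17 or more on all 7 treated arrays and at −6.05 or less on all 8 untreated ones, Nepn stands apart in treated shCTR cells, and Ogn, Aspn and Prelp are open circles throughout.

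Decorin, which carries a single chondroitin or dermatan sulphate chain and binds collagen and growth factors, rose more with retinoic acid than any other tested member. Its intensities were 3447.3, 2957.6 and 3475.6 in treated sh4 cells. In treated shCTR cells they were 2201, 2103.5, 2442.2 and 1831.7. The probe was well above background on all 4 arrays of untreated sh4 cells, at 13.3, 23.7, 16 and 22.8, and on none of untreated shCTR cells, at 1.8, 2.3, 3.6 and 1.7. The 4 groups did not overlap, and the order from high to low was treated sh4, treated shCTR, untreated sh4, untreated shCTR.

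The mean log2 level of Dcn was 0.94 ± 0.08 in treated sh4 cells (SD, n = 3), 0.29 ± 0.13 in treated shCTR cells, −6.47 ± 0.33 in untreated sh4 cells and −9.48 ± 0.46 in untreated shCTR cells (SD, n = 4 each). With retinoic acid Dcn rose 170-fold in sh4 cells (log2 difference 7.41 ± 0.22, adjusted p = 6.8e-12, limma). In shCTR cells it rose at least 285-fold, a bound because the untreated arrays were below background (fitted log2 difference 9.78 ± 0.21, adjusted p = 1.6e-13, limma). Within single slides, each of which held arrays of several groups, the rise was 6.96 to 7.87 in sh4 cells on 3 slides and 9.25 to 10.16 in shCTR cells on 4 slides. With a background correction that adds 50 units to every signal (normexp) it was 5.26 in sh4 cells and 4.68 in shCTR cells.

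Between hairpins, untreated sh4 cells had at least 2.63-fold more Dcn signal than untreated shCTR cells (fitted log2 difference 3.01 ± 0.21, adjusted p = 1.2e-07, limma; 2.23 to 3.50 within slides). In absolute terms this was a difference of 16.6 intensity units near the detection limit, and with normexp it was 0.09 with an adjusted p of 0.73. In treated cells the sh4 arrays were all above the shCTR arrays, by 1150 units on average, and the log2 difference was 0.64 ± 0.22, which did not pass the threshold of 0.05 (adjusted p = 0.058, limma; 0.60, adjusted p = 0.077, with slide as a block; 0.44 to 0.71 within slides). Its 95% interval, before adjustment over genes, ran from 0.16 to 1.12. It passed when only these 7 arrays were fitted (0.64, adjusted p = 0.0037), with normexp (0.67, adjusted p = 0.011), in the authors' deposited table (0.69, adjusted p = 3.9e-06) and when the array of untreated shCTR replicate 3, or of untreated sh4 replicate 1 or 2, was left out (adjusted p = 0.01, 0.048 and 0.043).

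Lumican, a keratan sulphate proteoglycan best known from the cornea, was dim and rose with retinoic acid. Its intensities were 43.9, 37.4 and 44.9 in treated sh4 cells. In treated shCTR cells they were 47.2, 44.2, 45.5 and 42.9. Untreated sh4 cells had 4.9, 9.6, 6.4 and 11.5, with 2 of 4 arrays well above background, and untreated shCTR cells had 2.7, 6.3, 1.5 and 2.9, with none. Treated and untreated arrays did not overlap, while the hairpins overlapped in both states.

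In sh4 cells the log2 level of Lum was −5.36 ± 0.07 with retinoic acid and −7.74 ± 0.44 without (SD, n = 3 and 4), a rise of 2.38 ± 0.34 (adjusted p = 3.6e-05, limma; 1.96 to 3.00 within slides). In shCTR cells it rose at least 5.8-fold (fitted log2 difference 3.81 ± 0.32, adjusted p = 1.3e-07, limma; 2.72 to 4.74 within slides). With normexp the rise was 0.50 in sh4 cells (adjusted p = 0.011) and 0.43 in shCTR cells (adjusted p = 0.015). Treated sh4 and shCTR cells differed by −0.08 (95% interval −0.82 to 0.66, adjusted p = 0.93, limma). The untreated hairpin difference was called, at 1.35 ± 0.32 (adjusted p = 0.0053, limma), but only 2 of the 8 arrays behind it were well above background, so no bound on its size was measured. With normexp the difference was −0.05 (adjusted p = 0.84), and it was 0.14 in the authors' deposited table (adjusted p = 0.088).

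Biglycan, the closest relative of decorin and usually a carrier of a pair of chondroitin or dermatan sulphate chains, was measured well above background on all 15 arrays. Its intensities were 240.2, 241.7 and 256.7 in treated sh4 cells. In treated shCTR cells they were 212.5, 256.9, 226.9 and 216.1. Untreated cells spread far more, with 34.7, 167.8, 59.1 and 88.1 for sh4 and 76.3, 121.7, 42.3 and 67.9 for shCTR. All 7 treated arrays were above all 8 untreated ones, and the untreated array on slide 2 was the highest in both hairpins.

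The spread of the Bgn log2 level was 0.09 in treated sh4 cells, 0.07 in treated shCTR cells, 0.93 in untreated sh4 cells and 0.58 in untreated shCTR cells (SD, n = 3, 4, 4 and 4). Bgn rose 3.16-fold with retinoic acid in sh4 cells (log2 difference 1.66 ± 0.41, adjusted p = 0.0031) and 2.92-fold in shCTR cells (1.54 ± 0.38, adjusted p = 0.0027, limma). Within slides the rise was between 0.52 and 2.64 in sh4 cells and between 0.98 and 2.25 in shCTR cells, and with slide as a block the adjusted p was 0.0019 and 0.0014. With normexp the rise was 0.89 in sh4 cells and 0.74 in shCTR cells. The hairpin difference was 0.13 with retinoic acid (95% interval −0.75 to 1.02) and 0.02 without (−0.80 to 0.84), and neither passed (adjusted p = 0.90 and 0.99, limma).

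Fibromodulin, a keratan sulphate proteoglycan that regulates collagen cross-linking, was well above background on all 15 arrays and passed the threshold in no comparison. Its intensities were 42.1, 36 and 27.5 in treated sh4 cells. In treated shCTR cells they were 17.6, 44.4, 36 and 26.3. Untreated sh4 cells had 44.7, 49.6, 27 and 37.9, and untreated shCTR cells had 46.9, 57.2, 20.7 and 28.9. The 4 groups overlapped.

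The Fmod difference between treated and untreated cells was −0.23 in sh4 cells (95% interval −1.02 to 0.56, adjusted p = 0.63) and −0.40 in shCTR cells (−1.13 to 0.33, adjusted p = 0.34, limma). Between hairpins it was 0.26 with retinoic acid (−0.53 to 1.05, adjusted p = 0.74) and 0.10 without (−0.64 to 0.83, adjusted p = 0.91). The fall in shCTR cells was called with normexp (−0.35, adjusted p = 0.035) and with quantile normalisation (−0.62, adjusted p = 0.049).

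**Figure D2:**
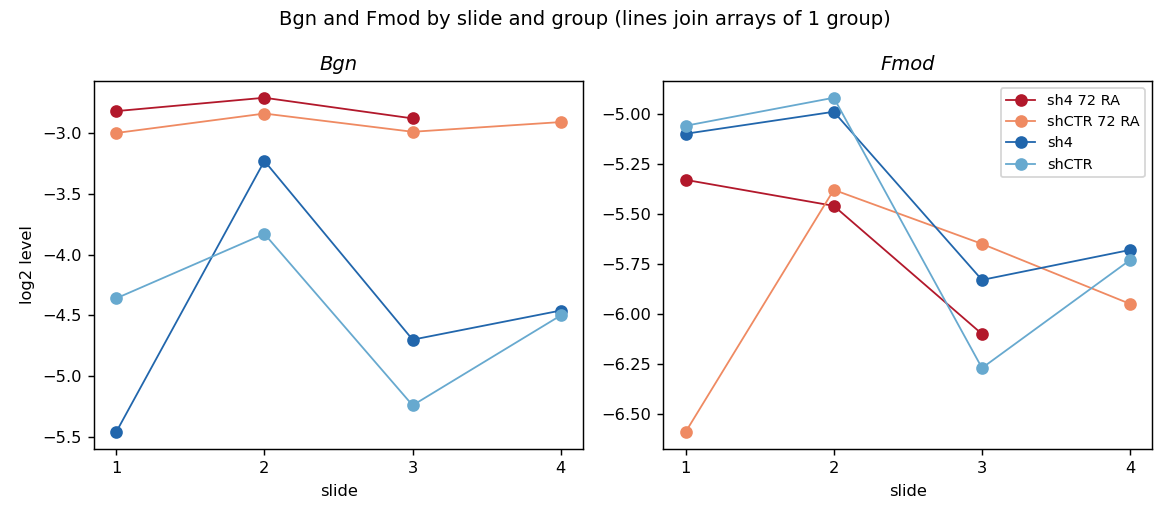
The log2 levels of Bgn (left) and Fmod (right) on the y axis are plotted against the slide that held the array on the x axis, 1 colour per group. Untreated Bgn is highest on slide 2 in both hairpins while the treated arrays stay between −3 and −2.71, and Fmod shows no separation of treated from untreated arrays.

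Nephrocan was the member whose hairpin difference passed the threshold in treated cells. In mouse it is known from kidney and from embryonic gut endoderm, and in cultured cells it has been described as an inhibitor of transforming growth factor beta signalling. Its intensities were 22.2, 29.7 and 22.9 in treated sh4 cells. In treated shCTR cells they were 226.4, 221.9, 468.8 and 404. Untreated sh4 cells had 6, 14.9, 6.2 and 15.8, and untreated shCTR cells had 9.3, 19.5, 9.9 and 10.8, with 2 of 4 arrays well above background in each. The treated shCTR arrays were above all others without overlap, treated sh4 came second and also without overlap, and the 2 untreated groups overlapped.

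Treated sh4 cells had 12.4-fold less Nepn than treated shCTR cells (log2 level −6.12 ± 0.34 against −2.48 ± 0.59, SD, n = 3 and 4). The log2 difference of −3.64 ± 0.38 passed (adjusted p = 1.6e-05, limma). It was −4.42 to −2.68 within slides and −3.54 with slide as a block (adjusted p = 4.9e-05). Normexp gave a smaller difference of −1.88 (adjusted p = 2.2e-05) and the authors' deposited table −1.78 (adjusted p = 6.2e-06). Without retinoic acid the difference was −0.31 (95% interval −1.07 to 0.45, adjusted p = 0.63).

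With retinoic acid Nepn rose 2.43-fold in sh4 cells (log2 difference 1.28 ± 0.38, adjusted p = 0.010, limma; 0.99 to 1.73 within slides), a call lost with normexp (0.14, adjusted p = 0.64) and in the authors' deposited table (0.19, adjusted p = 0.39). In shCTR cells it rose 24.4-fold (4.61 ± 0.35, adjusted p = 5.5e-08, limma; 3.42 to 5.39 within slides). That rise was 1.83 with normexp (adjusted p = 1e-06). The hairpin difference with retinoic acid minus that without was −3.33 ± 0.52 (adjusted p = 0.00046, limma), −3.80 to −2.43 within the 3 slides that held all 4 groups. This interaction stayed past the threshold in each of the 24 alternatives, with values between −3.65 and −1.69. The rises and the interaction use untreated groups in which only 2 of 4 arrays were well above background, so their sizes are uncertain.

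The interaction also passed for Dcn (−2.37 ± 0.30, adjusted p = 9.2e-05) and Lum (−1.43 ± 0.47, adjusted p = 0.046, limma), and for both it rests on untreated shCTR arrays below background. With those arrays at the lowest level well above background, the hairpin difference of Dcn was 0.64 with retinoic acid and at least 1.39 without on the log2 scale, a difference of −0.75. For Dcn the sign turned with normexp (0.58, adjusted p = 0.12) and in the authors' deposited table (0.40, adjusted p = 0.006). For Lum, 2 untreated sh4 arrays were below background as well, so no such value was set, and the call was lost in 15 of 24 alternatives, most of which left out a single array, and in 1 more the sign turned.

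**Figure D3:**
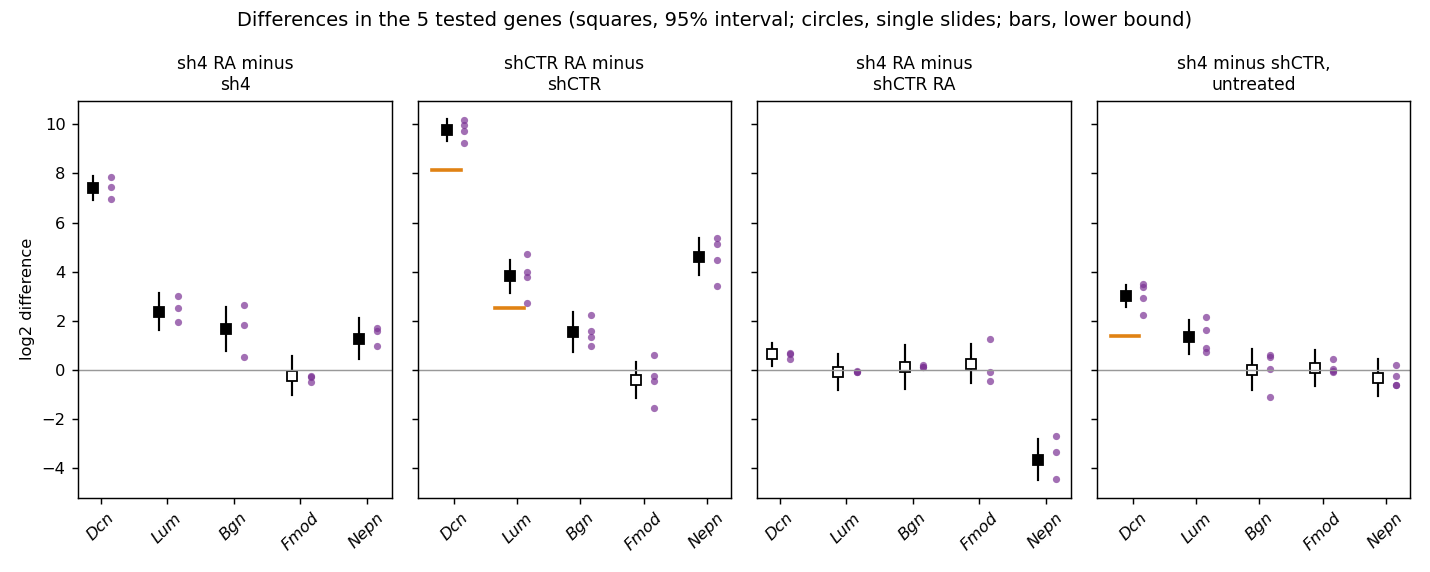
Squares give the log2 difference of each tested gene with its 95% interval in 4 comparisons, filled where the adjusted p was under 0.05. Purple circles are differences within single slides, and orange bars are the lower bounds for genes below background on every array of 1 group and well above it on every array of the other. Dcn, Lum, Bgn and Nepn lie above 0 in both retinoic acid comparisons, and Nepn at −3.64 is the only filled square in the hairpin comparison of treated cells.

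Counted over the 5 tested members, 4 rose with retinoic acid in sh4 cells and 4 in shCTR cells, the same Dcn, Lum, Bgn and Nepn, and none fell. Of all genes tested, 58.6% passed in sh4 cells (27.1% higher, 31.6% lower) and 62.5% in shCTR cells (28.9% higher, 33.5% lower). Lum and Nepn entered the test only through their treated arrays, so that these counts say little beyond the single genes. Between hairpins 1 of the 5 passed with retinoic acid (Nepn, lower), where 21.1% of all genes did (10.8% higher, 10.3% lower). Without it 2 of the 5 passed (Dcn and Lum, higher), where 28.4% of all genes did (14.3% higher, 14.2% lower). The interaction passed for 3 of the 5, all below 0, and for 20.4% of all genes (10.3% above 0, 10.1% below). Arrays did not overlap between treated and untreated cells for 4 of the 5 tested members in each hairpin, against 57.9% of all genes in sh4 cells and 59.9% in shCTR cells. Between hairpins they did not overlap for Dcn and Nepn with retinoic acid (32.3% of all genes) and for Dcn without (28.3%). The median gene moved by −0.12 in both retinoic acid comparisons on this scale, and by −0.23 with normexp in shCTR cells.

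Osteoglycin, asporin and Prelp stayed below background. Ogn, a leucine-rich protein of bone and vessel wall, had intensities of 5.2 to 7.2 in treated sh4 cells, 6.3 to 9.2 in treated shCTR cells, 2 to 5.2 in untreated sh4 cells and 2 to 2.4 in untreated shCTR cells. Aspn, a class relative of decorin found in cartilage and the periodontal ligament, stayed between 1.7 and 4.3, and Prelp, a protein that anchors basement membranes to connective tissue, between 1.3 and 1.8 on all arrays. Without the filter on dim probes, Ogn differed by 1.08 in sh4 cells and 1.62 in shCTR cells with retinoic acid (adjusted p = 0.0095 and 0.00024, limma), a difference among signals that were all short of the mark for well above background.

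Over the 15 arrays, which fall into the 4 groups, the genes with the pattern most like each member were found by Pearson correlation of log2 levels. Dcn was most like the transcript ENSMUST00000100730 (r = 0.999), Cyp1b1 and Gng10 (0.998 each). Nepn was most like Drp2 (0.984), Apoa1 (0.983) and Retreg1 (0.982). Apoa1, which encodes an apolipoprotein made by liver and yolk sac endoderm, is also on the endoderm marker list. Lum was closest to Cdkl1 (0.986), Htr7 (0.985) and Cxxc4 (0.983), and Bgn to Tenm2 (0.967), ENSMUST00000098488 (0.958) and Htr1d (0.948). Fmod, which separated no groups, was closest to ENSMUST00000071591 (0.949), Olfr61 (0.940) and 8430439B09Rik (0.938).

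Cell type markers were set beside the members as description only, because the marker lists were chosen with earlier results of these data known. All 13 endoderm markers were lower in treated sh4 than in treated shCTR cells, as was Nepn, with a median log2 difference of −2.47. In that comparison 10.3% of all genes were lower. Without retinoic acid 8 of the 13 markers were lower in sh4 (median −1.08), against 14.2% of all genes, while the Nepn difference of −0.31 did not pass. Their summed level was 13.8 to 14 in treated sh4 cells, 57.2 to 67.3 in treated shCTR cells, 0.836 to 0.945 in untreated sh4 cells and 2.02 to 2.23 in untreated shCTR cells. Ttr, a plasma carrier protein of yolk sac and liver, was well above background on no untreated array. Of the 13, 10 rose and 1 fell with retinoic acid in sh4 cells, and 13 rose in shCTR cells. In each hairpin 2 of these called genes were well above background on fewer than 3 arrays of 1 of the groups compared. Of all genes tested, 27.1% rose in sh4 cells and 28.9% in shCTR cells. The part of endoderm cells in the Nepn difference was not tested.

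The summed level of the 5 smooth muscle markers, in which bright probes weigh most, had the same order of groups as Dcn. It was 84.1 to 87 in treated sh4 cells, 59.4 to 77.1 in treated shCTR cells, 3.93 to 5.3 in untreated sh4 cells and 1.3 to 2.23 in untreated shCTR cells, and 5 of 5 rose with retinoic acid in both hairpins. Single markers differed in the order: in untreated cells Acta2, Tagln and Cnn1 were higher in sh4 than in shCTR, while Des was lower by −0.83 ± 0.13 and Myh11 by −0.43 ± 0.11 (adjusted p = 0.00027 and 0.01, limma). Acta2, smooth muscle actin, had intensities of 25707.9 to 31364.2 and 17620.8 to 26849.2 in treated sh4 and shCTR cells, and of 375.5 to 677.5 and 53.3 to 74.1 in the untreated ones. Between treated hairpins only Acta2 of the 5 passed, higher in sh4 by 0.52 ± 0.16 (adjusted p = 0.032, limma). Myh11 and Des had lower means in treated sh4 than in treated shCTR cells (log2 levels −3.96 against −3.9 and −1.41 against −1.26). Among 13 measured of 15 fibroblast and mesenchyme markers, 10 rose and 2 fell in both hairpins. Of these called genes, 2 in sh4 cells and 3 in shCTR cells were well above background on fewer than 3 arrays of 1 group compared. The summed level of this list was 28.4 to 29.6 in treated sh4 cells, 25.1 to 29.3 in treated shCTR cells, 40.5 to 45.5 in untreated sh4 cells and 37.8 to 41.5 in untreated shCTR cells, with Fn1 (fibronectin) among the 2 that fell. Between untreated hairpins, 4 of the 13 were higher and 6 lower in sh4, where 14.3% of all genes were higher and 14.2% lower. Of these called genes, 2 were well above background on fewer than 3 arrays of 1 group compared. Between treated hairpins, 1 was higher and 3 were lower in sh4, where 10.8% of all genes were higher and 10.3% lower. Postn was well above background on no untreated array and Prrx1 on no array at all. Of 7 measured cartilage and bone markers, 3 rose in sh4 cells and 4 in shCTR cells. Sox9, which rose in both hairpins, was well above background on no untreated array. Over all genes tested, 27.1% rose in sh4 cells and 28.9% in shCTR cells. The part of any of these cell types in the rise of Dcn, Lum and Bgn was not tested.

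**Figure D4:**
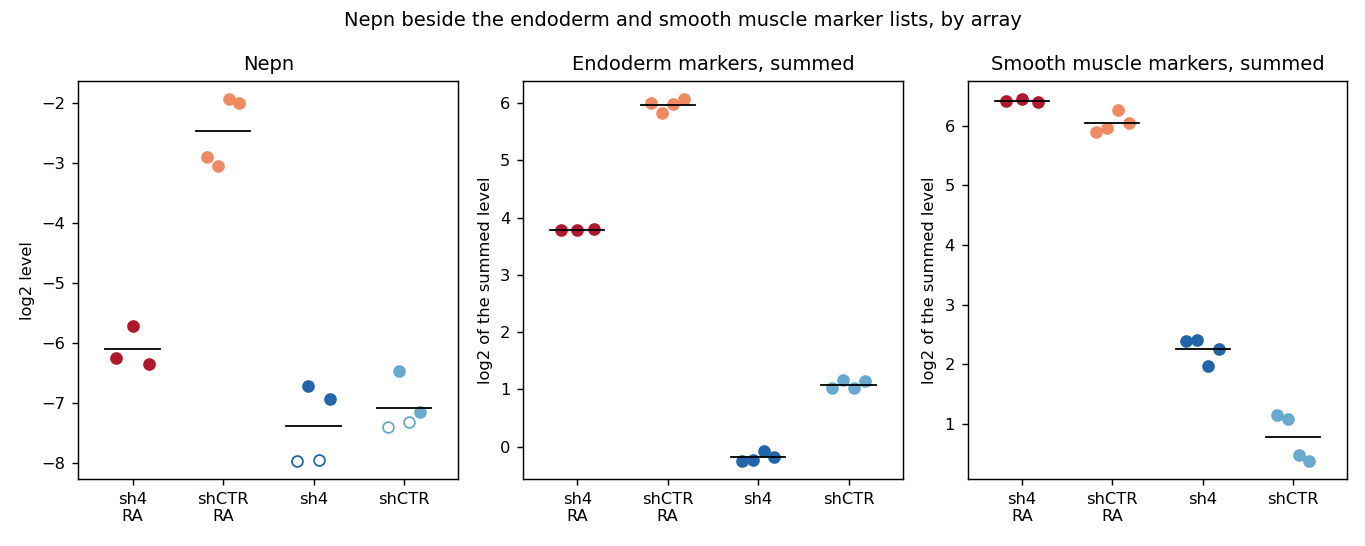
The left panel plots the log2 level of Nepn on each array against the 4 groups, with open circles where it was not well above background. The middle and right panels plot the log2 of the summed level of the 13 endoderm and the 5 smooth muscle markers. Nepn and the summed endoderm level are highest in treated shCTR cells, and the summed smooth muscle level in treated sh4 cells.

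The promoter of Nepn is printed because Nepn, like the endoderm genes, was lower in treated sh4 than in treated shCTR cells. Among those endoderm genes, Gata4 and Gata6 encode factors that bind GATA sequences. Both strands were searched for GATAA, for the nuclear receptor hexamer AGGTCA and for the TATA box letters TATAAA in windows of the 250 bases before the gene start in RefSeq, build GRCm38.p6. RefSeq promoter entries matched 6 of the 8 members, and Dcn and Lum had none. Capitals mark GATAA or its reverse complement.
Nepn, chr10:52391358-52391607, plus strand: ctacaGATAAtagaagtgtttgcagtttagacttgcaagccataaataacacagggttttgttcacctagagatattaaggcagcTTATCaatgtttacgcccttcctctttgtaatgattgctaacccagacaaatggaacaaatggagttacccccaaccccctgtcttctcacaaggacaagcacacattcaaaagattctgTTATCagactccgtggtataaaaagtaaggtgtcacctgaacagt
The window holds 3 matches of GATAA, whose first bases lie at −245, −165 and −45 from the start, 1 of TATAAA at −29 that overlaps none of them, and none of AGGTCA. At least 1 GATAA was present in 22.6% of 32851 promoter windows of the same length, and 3 or more in 0.712%. TATAAA was present in 12.4% and AGGTCA in 14%. Of the other promoters, Fmod had 1 GATAA and Bgn, Ogn, Aspn and Prelp had none. These matches describe letters in a window and were not tested against binding. The part of GATA factors in the Nepn difference was not tested.

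Among 11 other genes of the family, 8 were measured. With retinoic acid 4 rose and 2 fell in sh4 cells, where 27.1% of all genes rose. In shCTR cells 3 rose and 1 fell, where 28.9% of all genes rose. Optc and Ecm2, which are among the risers in both hairpins, entered the test only through their treated arrays. Optc (opticin), a proteoglycan of the eye, rose at least 4.86-fold in sh4 cells and at least 3.1-fold in shCTR cells (adjusted p = 8.9e-07 and 5.6e-06, limma). Ecm2, the neighbour of Aspn, rose by 2.91 ± 0.52 and 3.22 ± 0.48 on the log2 scale (adjusted p = 0.00024 and 4.2e-05), with 1 of 4 arrays well above background in each untreated group. Without retinoic acid, Podn (podocan) was higher in sh4 than in shCTR cells by 0.88 ± 0.13 (adjusted p = 0.00012) and Chadl was lower by −0.60 ± 0.11 (adjusted p = 0.0011). With retinoic acid Chadl was higher in sh4 by 0.45 ± 0.12 (adjusted p = 0.017), and the interaction passed (1.05 ± 0.16, adjusted p = 0.00049).

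The enzymes that build the sugar chains rose more often than they fell after retinoic acid. Of 22 linker, chondroitin and dermatan sulphate enzymes, 13 rose and 2 fell in sh4 cells and 13 rose and 4 fell in shCTR cells, with medians of 0.40 and 0.60 against −0.12 over all genes. Among all genes 27.1% rose in sh4 cells and 28.9% in shCTR cells. Chst14, which sulphates dermatan, rose by 2.64 ± 0.09 in sh4 cells (adjusted p = 3.2e-11, limma). In shCTR cells its mean log2 level also rose, from −2.01 without retinoic acid to 0.66 with it. Chst15, which sulphates chondroitin, rose by 3.68 ± 0.12 in shCTR cells (adjusted p = 6.2e-12) and was lower by −0.99 ± 0.12 in treated sh4 than in treated shCTR cells (adjusted p = 7.6e-05). In sh4 cells the mean log2 level of Chst15 also rose, from −3.69 to −1.81. In untreated cells Chst15 was higher in sh4 by 0.81 ± 0.12 (adjusted p = 0.00011), and the interaction passed (−1.80 ± 0.17, adjusted p = 6.8e-06). Of 7 measured keratan sulphate enzymes, 4 rose and 2 fell in sh4 cells and 5 rose and 2 fell in shCTR cells.

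Most of the collagen genes rose as well, against 27.1% of all genes in sh4 cells and 28.9% in shCTR cells. Of 13 fibrillar and fibril-associated collagen genes, 11 rose and 1 fell in sh4 cells and 12 rose and 1 fell in shCTR cells, with medians of 2.49 and 2.08. Of these called genes, 2 in sh4 cells and 3 in shCTR cells were well above background on fewer than 3 arrays of 1 of the groups compared. Col3a1 rose by 6.13 ± 0.15 in sh4 cells, where 1 of 4 untreated arrays was well above background (adjusted p = 1.2e-12, limma), and at least 41.2-fold in shCTR cells (adjusted p = 5.8e-14). Col12a1, a collagen on the fibril surface, rose at least 25.1-fold in sh4 cells and at least 13.1-fold in shCTR cells (adjusted p = 2e-13 and 1.4e-13), and Col5a3 fell in both. Of 17 measured collagen processing genes, 11 rose and 3 fell in each hairpin, with Serpinh1, the collagen chaperone of the endoplasmic reticulum, up by 3.68 ± 0.07 in sh4 cells and 4.29 ± 0.07 in shCTR cells (adjusted p = 2.4e-13 and 1.6e-14).

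More of the growth factor partners and receptors rose than fell after retinoic acid. For all genes tested the share that rose was 27.1% in sh4 cells and 28.9% in shCTR cells. Of 15 transforming growth factor beta genes, 9 rose and 4 fell in sh4 cells and 8 rose and 4 fell in shCTR cells. Tgfb2, a ligand, rose by 3.97 ± 0.15 in sh4 cells and 6.03 ± 0.14 in shCTR cells (adjusted p = 5.8e-11 and 3.5e-13, limma). Without retinoic acid Tgfb2 was higher in sh4 than in shCTR cells by 1.82 ± 0.14 (adjusted p = 3.4e-07, limma). In that comparison 4 of the 15 genes were higher and 5 lower, where 14.3% of all genes were higher and 14.2% lower. Of 9 measured receptors of decorin, biglycan or lumican, 6 passed as higher and 1 as lower in each hairpin, but the 6 in sh4 cells include Tlr4, which was well above background on no sh4 array. Egfr, a receptor that decorin binds, was higher in sh4 than in shCTR cells by 0.77 ± 0.10 with retinoic acid (adjusted p = 0.00014) and 1.60 ± 0.10 without (adjusted p = 3.6e-08). Tlr4, a receptor of soluble biglycan, was well above background only in treated shCTR cells, on 4 of 4 arrays, and was at least 1.37-fold lower in treated sh4 cells (adjusted p = 0.0092).

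Of 21 other proteoglycans, 13 rose and 1 fell in sh4 cells and 13 rose and 2 fell in shCTR cells. In each hairpin 2 of these called genes were well above background on fewer than 3 arrays of 1 of the groups compared. The share of all genes that rose was 27.1% in sh4 cells and 28.9% in shCTR cells. Srgn (serglycin), an intracellular granule proteoglycan, was lower in sh4 than in shCTR cells in both states, by −3.36 ± 0.15 with retinoic acid and −2.48 ± 0.14 without (adjusted p = 9.5e-09 and 2.5e-08, limma). More of the 21 went the other way. Between treated hairpins 7 were higher and 3 lower in sh4, where 10.8% of all genes were higher and 10.3% lower. Between untreated hairpins 9 were higher and 3 lower in sh4, where 14.3% of all genes were higher and 14.2% lower. In treated cells Nepn and Srgn were thus lower in sh4, while the Dcn, Lum, Bgn and Fmod differences did not pass.

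**Figure D5:**
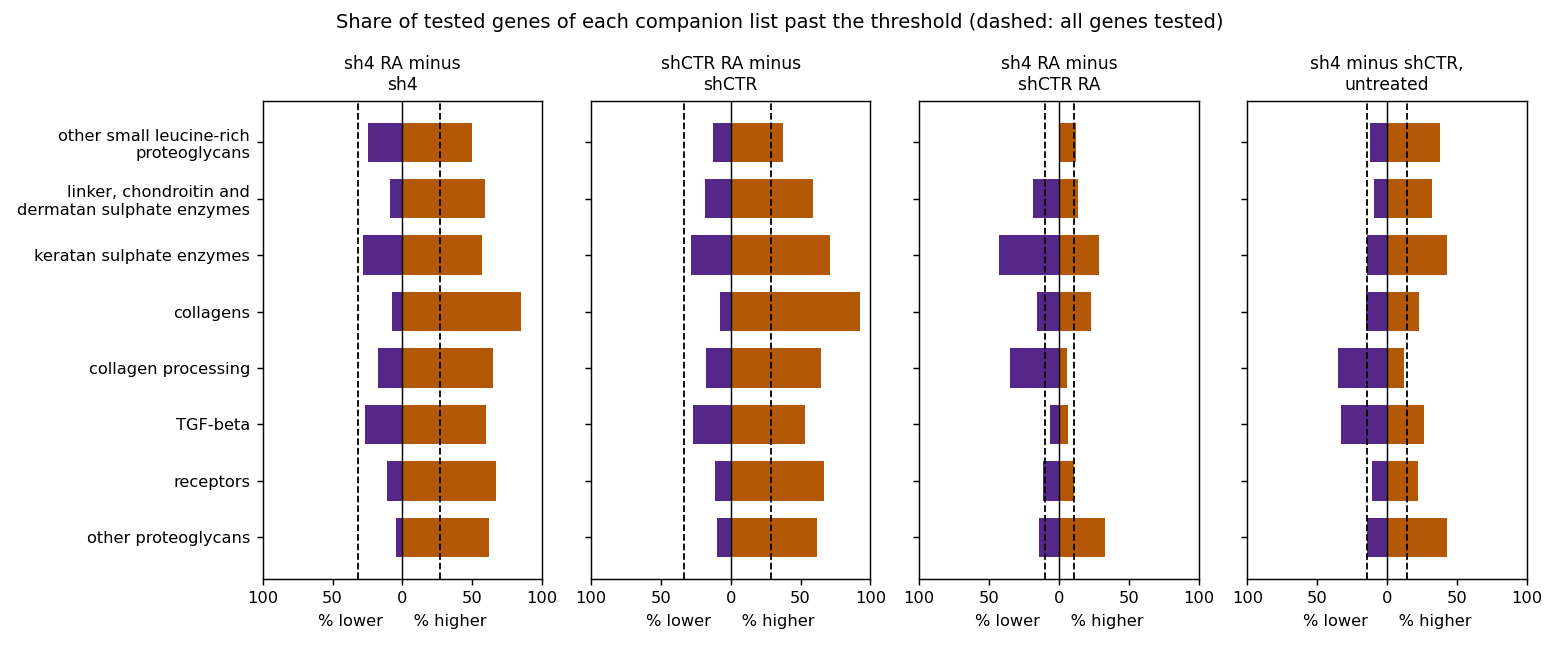
Bars give the percentage of measured genes of each companion list that passed the threshold, higher to the right and lower to the left, in 4 comparisons. Dashed lines give the same percentages for all genes tested, 28.9 higher and 33.5 lower for retinoic acid in shCTR cells. The collagens reach furthest to the right in both retinoic acid comparisons.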

How the data were processed

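The authors deposited a scanner file for each array. Its spot intensity was made, per the file headers, by Agilent Feature Extraction 10.7.3.1, which removed a spatially fitted background and a multiplicative trend and gave values that were not above background a surrogate. Arrays were not scaled to one another. How the authors made the log2 values of their deposited table is unknown from the labels and files used here. They lay within a median of 0.0061 of normexp correction (offset 50) with quantile normalisation and served only as an alternative.

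From 43020 spots, marked spots were left out and copies averaged on the log2 scale, which left 39312 complete probes. Each array's 75th percentile was subtracted. A probe was kept if 3 or more arrays of any group marked it as well above background, and each gene was read by its brightest kept probe. Symbols of 26055 probes were matched by RefSeq accession, and 3358 changed. One limma 3.58.1 model (R 4.3.3, data.table package, version 1.17.8) of the 4 groups over 15 arrays gave two-sided tests, adjusted by Benjamini-Hochberg over 25139 genes, threshold 0.05. The model was tested on simulated data.

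Members, companion lists and marker lists were chosen with earlier results of these data known. Named companion genes come from the 2 largest changes past the threshold per list, comparison and direction among genes whose arrays do not overlap, and like-patterned genes are the 3 with the highest correlation. Bounds set the arrays of a dim group to the lowest level well above background, or to the probe's own level if higher, where the other group was measured on all its arrays. Some probes not marked as well above background lay above that lowest level, so the bounds are minima under this setting only. The number of arrays limits the precision. All 21 pairs of arrays on 1 slide deviated together (r 0.115 to 0.607), so slide values stand beside the results. Alternatives covered background correction, normalisation, filter, probe choice, blocks, marked spots and left-out arrays.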

Additional observations from a re-analysis of the deposited data

Results flagged for a closer look

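Nepn was picked out because the effect of the hairpin differed between treated and untreated cells by a test of the difference itself, at −3.33 on the log2 scale (limma, adjusted p = 0.00046). Nepn was well above background on only 2 of 4 arrays in each untreated group. The same test picked out Dcn at −2.37 (adjusted p = 9.2e-05) and Lum at −1.43 (adjusted p = 0.046), both with all untreated shCTR arrays below background. By Dixon's test no array stood apart in 15 sets of values, the 5 tested genes in each of the 3 groups of 4 arrays, where chance alone would give about 1 in 20. The 3 arrays of treated sh4 cells were too few for this test.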

How the results depend on the processing

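Over the 5 tested genes and 5 comparisons, 580 alternative values kept their direction and their side of the threshold, 19 lost the call, 8 gained it and 23 turned sign. With normexp, 0 members passed between untreated hairpins, 2 between treated hairpins and 1 for the interaction, where 18.4%, 13.3% and 12% of all genes did. The authors' deposited table gave 1 between untreated and 2 between treated hairpins, where 22.9% and 18.9% of all genes passed. A fit of only the 2 groups compared gave 2 between treated hairpins, where 20.8% of all genes passed. Restricting the test to probes well above background on all 15 arrays left only Bgn and Fmod. Of these, 0 passed between untreated hairpins, between treated hairpins and for the interaction, where 31.4%, 23.6% and 23% of all genes did. In each retinoic acid comparison 1 passed, where 61.1% of all genes did in sh4 cells and 65.2% in shCTR cells. Leaving out 1 array at a time gave 1 to 2 members between treated hairpins, where 15.6% to 21.4% of all genes passed. There were 2 when untreated sh4 replicate 1 or 2 or untreated shCTR replicate 3 was left out.

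Signs turned as follows. For Dcn the interaction was 0.58 with normexp and 0.40 in the deposited table. For Lum normexp gave −0.05 between untreated hairpins, 0.01 between treated hairpins and 0.07 for the interaction, and the deposited table gave 0.01 between treated hairpins. For Bgn between untreated hairpins the values were −0.07 with normexp, −0.02 with quantile normalisation and −0.39 to 0.35 with 1 array left out, and for its interaction −0.17 without the 3 arrays rated as needing evaluation and −0.22 to 0.53 with 1 left out. For Fmod between untreated hairpins they were −0.10 with normexp and −0.16 to 0.29 with 1 array left out, its interaction was −0.32 without the 3 rated arrays and −0.07 to 0.42 with 1 left out, and its retinoic acid difference in sh4 cells was −0.38 to 0.00 with 1 left out. Nepn between untreated hairpins was 0.08 without the 3 rated arrays. Normexp adds 50 units to each signal and so shrinks differences among dim probes. Other causes were not tested.

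Pairing by replicate number could be told apart from a shared slide only through treated sh4 replicates 3 and 4. Number and slide were the same on all other arrays. All 21 same-slide pairs of arrays correlated above 0.1, with a range of 0.115 to 0.607. Of 21 same-number pairs of arrays, 18 correlated above 0.1, with a range of −0.533 to 0.578. Among 57 pairs that shared neither number nor slide, 18 did. With a replicate block the Lum difference between treated hairpins was 0.06, and no call among the 5 genes changed. Over all genes normexp called 4626 between untreated hairpins and 3356 between treated ones, against 7150 and 5308. For the interaction it called 3016, against 5123. Signals below background limit Dcn and Lum in untreated shCTR cells and Ogn, Aspn and Prelp in all cells. They also limit Lum in untreated sh4 cells and Nepn in both untreated groups, with 2 of 4 arrays well above background in each.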
